A study of Mus musculus with 9 samples.

Results

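The MKS module is the set of transition zone proteins mutated in Meckel syndrome and related ciliopathies, and the 10 genes examined here were Mks1, B9d1, B9d2, Tmem231, Tmem67, Tmem216, Tctn1, Tctn2, Tctn3 and Cc2d2a. They were chosen by name, and each was found once among the 23074 genes of the count table by its Ensembl identifier. Each library came from the decapsulated testis tissue of 1 mouse at postnatal days 29 to 30 (P30), and there were 5 wild type and 4 Rfx2-/- libraries. All mice were on the same mixed background of C57BL/6, 129/Sv and FVB/N. The Rfx2-/- mice carried a null allele throughout the body: exon 7, which encodes most of the DNA binding domain, had been flanked by loxP sites and excised with a universal ACTB-cre. Their spermatids are described in the study as stopping at the round stage, so the genotypes differed in the late germ cells present as well as in RFX2.

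The transition zone is the segment between the basal body and the axoneme, where links join the outer doublet microtubules to the membrane and control which proteins enter the cilium. The MKS module lies at its membrane side. The B9 domain proteins MKS1, B9D1 and B9D2 and the coiled-coil protein CC2D2A sit on the cytoplasmic face. The tectonics TCTN2 and TCTN3 and the transmembrane proteins TMEM231, TMEM67 and TMEM216 reach into or across the membrane. In spermatids, a basal body docks at the plasma membrane and builds the axoneme of the sperm tail. RFX factors bind the X-box, an imperfect inverted repeat of the half-site GTTGCC, and are known regulators of ciliary genes in many animals.

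Promoter windows of RefSeq (build GRCm38.p6), from 250 bases before to 50 bases after the annotated start, were available for 9 of the 10 members, Tmem67 being the exception. Each window was searched on both strands for the stretch of 14 bases closest to an X-box made of GTTGCC, the letters AT and the reverse complement GGCAAC. The best stretch of each member is printed 5′ to 3′ with the 14 bases in capitals, because the members whose RNA fell and those whose RNA did not can be compared in it. For Tctn2, 2 stretches tied.
Tmem231, chr8:111933781-111933810, minus strand: cgccgtcgGTTGCCGTGGAGACtcggcgct
Tctn2, chr5:124598679-124598708, plus strand: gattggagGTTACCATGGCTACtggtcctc
Tctn2, chr5:124598754-124598783, plus strand: gattggtgGTTGCCATGGCTGCaggcattt
Tctn1, chr5:122264411-122264432, minus strand: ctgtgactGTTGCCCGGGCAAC
Mks1, chr11:87853183-87853212, plus strand: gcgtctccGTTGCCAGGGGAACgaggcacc
B9d1, chr11:61505130-61505159, plus strand: taccgtctGTTTCCAAGACAACcgagagcc
B9d2, chr7:25680788-25680817, plus strand: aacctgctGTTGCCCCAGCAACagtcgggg
Tmem216, chr19:10555723-10555752, minus strand: tgtacgcaGTTTCCATGGGGACtgaacatg
Tctn3, chr19:40612350-40612379, minus strand: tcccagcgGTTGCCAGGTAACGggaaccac
Cc2d2a, chr5:43662344-43662373, plus strand: cctagtgaCCTTCCCTGGGAACtggttgct

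The stretches of Mks1, Tctn1 and Tctn2 matched 12 of the 14 letters, and those of Tmem231, B9d1, B9d2 and Tmem216 matched 11. Those of Tctn3 and Cc2d2a matched 9. In all, 7 of the 9 members with a window reached 11 matches. Counted by window, 63.6% of the 11 windows of the module did so and 3.37% of all 32851 promoter windows. The half-site GTTGCC (or GGCAAC on the other strand) was found anywhere in the window in 7 members. By window this was 63.6% of the module and 12.5% of all windows. The spaced pattern GTNNCCNNGGNNAC, which overlaps the half-site, was found in 5 members, Mks1, Tmem231, Tmem216, Tctn1 and Tctn2. It was in 45.5% of the windows of the module and in 1.88% of all windows.

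Most of these stretches lay close to the start. The centre was 18 bases after it in the 5′ UTR exon of Tmem231, and in Tctn2 it was 55 bases before the start for one stretch and 20 bases after it, within an exon, for the other. It was 17 bases before the start of Mks1, outside any exon. In Tctn1, B9d2, B9d1 and Tmem216 it was 43, 23, 1 and 26 bases after the start, in each case in an annotated UTR exon of the gene. The stretch of Tctn3 was 133 bases before its start, within an exon of Entpd1, a gene that starts on the opposite strand. A match of letters is a description of the sequence and does not show that a factor binds there.

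Library totals were 13574764 to 15193330 reads counted in genes, except in Rfx2-/- replicate 1 with 28800855. Levels are given as CPM, the read count per 1000000 reads of library total after scaling by the TMM factor. A count of 3, taken as the detection floor, corresponded to 0.0995 CPM in that deeper library and to 0.196 to 0.234 CPM in the others, and every member was above it in every library. Rfx2 itself, on chromosome 17, fell from 549 ± 54.5 CPM (SD, n = 5) to 146 ± 59.7 CPM (SD, n = 4), or 26.6% of wild type (log2 difference -1.91 ± 0.28 SE, adjusted p = 7.81e-04 in edgeR). Rfx2-/- replicate 2 stood apart from the other libraries of its genotype. Its median log2 deviation from the mean of the other Rfx2-/- libraries was 0.573 for genes with under 2 kb of exon and -0.644 for genes with over 5 kb. Mitochondrial genes took 1.75% of its counts against 0.846% to 0.951% in the other Rfx2-/- libraries and 0.554% to 0.838% in wild type.

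In Rfx2-/- testes the module did not move as one. A gene was called changed at an edgeR adjusted p at or under 0.01 with a difference of over 2-fold. Of the 10 members, Tmem231 alone was called lower, where 3.68% of the 15613 genes tested were called lower. None was called higher, where 0.826% of all genes were; none was higher at an unadjusted p of 0.05 or by the DESeq2 test either, and limma voom gave 1, Tctn1, at adjusted p 0.05. At an adjusted p at or under 0.05 with no fold limit, 2 members were lower (7.31% of all genes), Tmem231 and Tctn2, and 0 were higher (3.48% of all genes). The median log2 fold change was -0.10 over the members and 0.03 over all genes, with 7 members below 0 and 3 above; at an unadjusted p of 0.05, 3 were lower, the third being Tmem67. For 8 members the 95% interval of the fold change lay within 2-fold in both directions, as it did for 71.2% of all genes. Both sets of libraries were fully apart for Tmem231 and Tctn2 only, both lower in Rfx2-/- testes; 9.71% of all genes had every Rfx2-/- library under every wild type library, and 6.14% had every one over it.

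**Figure D1:**
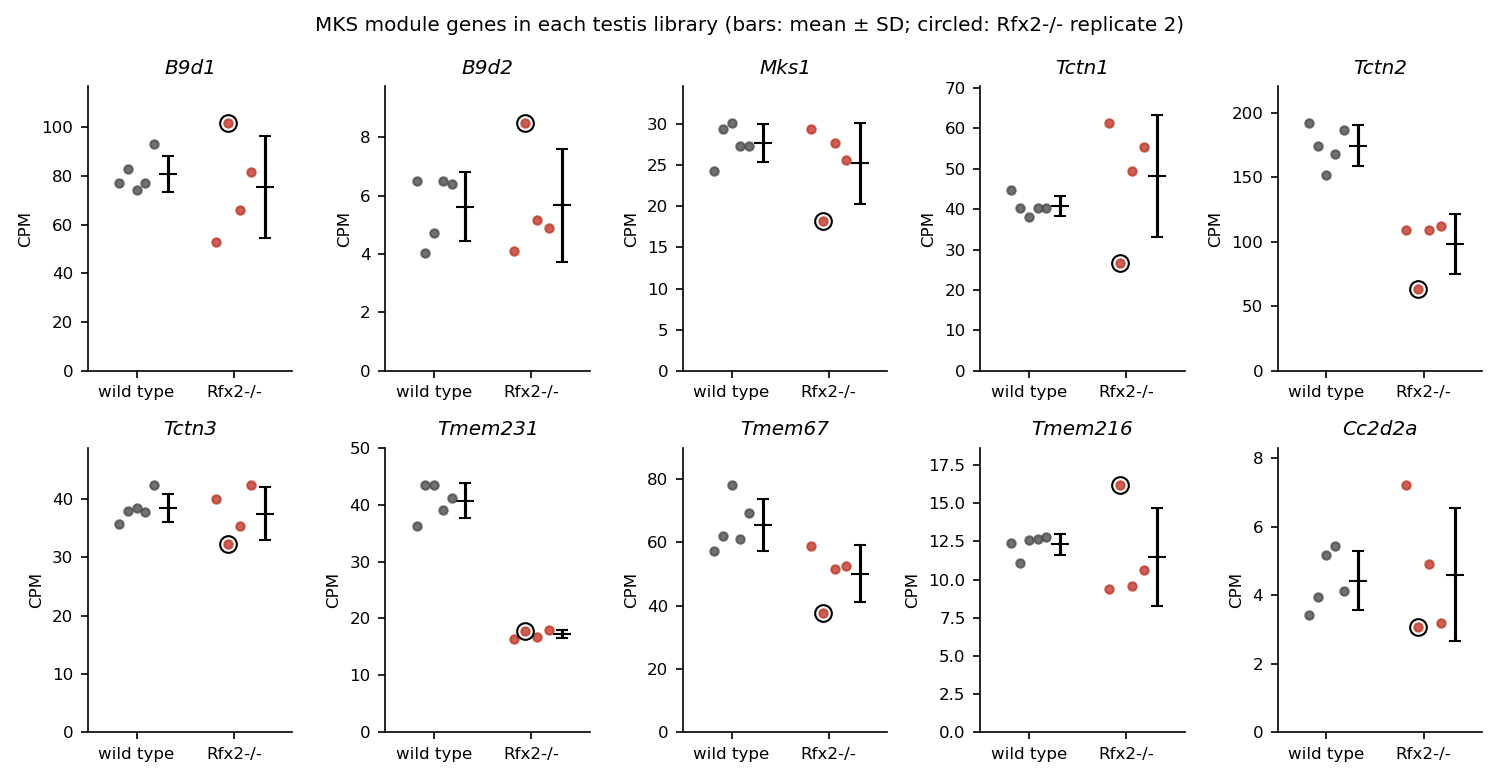
CPM (linear axis from 0) of each MKS module gene in each testis library, wild type in grey (n = 5) and Rfx2-/- in red (n = 4), with the mean ± SD at the side and Rfx2-/- replicate 2 circled. The 4 Rfx2-/- libraries lie between 16.4 and 17.98 CPM for Tmem231, below all wild type libraries, and the groups overlap for the 8 members other than Tmem231 and Tctn2.

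Tmem231 encodes a transmembrane protein needed for the MKS complex to gather at the ciliary base. The gene lies on the minus strand of chromosome 8 (111912011 to 111933881, GRCm38; 2984 bases of exon). In the wild type libraries its level was 36.3, 43.5, 43.4, 39.1 and 41.2 CPM, and in the Rfx2-/- libraries it was 16.4, 17.8, 16.8 and 17.98 CPM. The lowest wild type library was thus far above the highest Rfx2-/- library, and the coefficient of variation of the 4 Rfx2-/- libraries, 4.4%, was the smallest of any member in either genotype. The mean fell from 40.7 ± 3.06 (SD, n = 5) to 17.3 ± 0.759 CPM (SD, n = 4), which was 42.4% of wild type. The log2 fold change was -1.24 (SE 0.12, 95% interval -1.503 to -0.97, edgeR adjusted p = 2.69e-05), ranking 572 from the lowest among 15613 genes. Leaving out any single library kept it between -1.28 and -1.17, and without Rfx2-/- replicate 2 it was -1.25. Because the interval reaches a change of under 2-fold, a test against a 2-fold difference gave an adjusted p of 0.297.

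These are whole testes, so fewer cells of a type that transcribes Tmem231 and less Tmem231 RNA per cell cannot be told apart. The 12 genes listed as elongating spermatid markers were all below 0 in log2 fold change. Of these, 5 were lower at an edgeR adjusted p of 0.05 and none was called. The study describes the RNAs of Tnp1 and Tnp2, both in this list, as present but untranslated at the end of the round stage. The list therefore does not mark only cells beyond the arrest. Its summed level was 11840 to 23220 CPM in wild type and 10120 to 13700 CPM in Rfx2-/- testes. Round spermatid markers summed to 872.5 to 1266 CPM in wild type and 1205 to 1549 in Rfx2-/-, and meiotic prophase markers to 1178 to 1504 and 1534 to 3059. Genes listed as markers of multiciliated epithelium, which lines ducts next to the testis, summed to 135.5 to 201.9 and 91.3 to 143.8 CPM. Of these genes, Mcidas, Gmnc, Ccdc153 and Tmem212 were too low to be tested. The sums thus rest mainly on Dynlrb2 and Foxj1 and are not a measure of such epithelium. Whether such epithelium was in the tissue was not tested. The part of these markers' cells in the Tmem231 result was not tested.

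By a rule set for any member called, the 5 genes whose profile over the 9 libraries was closest to that of Tmem231 were Gtf2a1l, Enox1, Cdc25c, Rabggta and Cfap43. Closeness was the root mean square difference of log2(CPM + 0.5) centred on each gene's mean, over 11865 genes with a mean of at least 5 CPM, and it ran from 0.155 for Gtf2a1l to 0.162 for Cfap43. Gtf2a1l, a germ cell counterpart of a general transcription factor subunit, went from 282 ± 37.5 (SD, n = 5) to 117 ± 7.25 CPM (SD, n = 4). Cfap43, a sperm tail protein, went from 426 ± 35.8 (SD, n = 5) to 203 ± 28.0 CPM (SD, n = 4). The log2 fold changes of the 5 genes lay between -1.31 and -0.97. Values near that of Tmem231 follow from the choice, as the profiles were compared over both genotypes.

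Tmem67 encodes meckelin, a receptor-like protein with a large extracellular domain, and lies on the minus strand of chromosome 4 (12039355 to 12090020; 4235 bases of exon). Its level was 57.2, 61.9, 78.3, 61.2 and 69.3 CPM in wild type and 58.8, 37.6, 51.5 and 52.5 CPM in Rfx2-/- testes. The groups overlapped through 1 library on each side, as Rfx2-/- replicate 1 exceeded wild type replicate 1. The means were 65.6 ± 8.33 and 50.1 ± 8.94 CPM (SD, n = 5 and 4), and the log2 fold change of -0.39 (SE 0.16, 95% interval -0.73 to -0.05, edgeR adjusted p = 0.135) did not pass. The neighbour Rbm12b2, which overlaps Tmem67 and starts 581 bases away on the opposite strand, had a log2 fold change of 0.08 (adjusted p = 0.736).

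Tmem216, another small membrane protein of the module, lies on the minus strand of chromosome 19 (10533865 to 10556238; 1154 bases of exon). Wild type libraries gave 12.4, 11.1, 12.6, 12.7 and 12.8 CPM, and Rfx2-/- libraries gave 9.39, 16.2, 9.60 and 10.7 CPM. Replicate 2 was above every wild type library, while the other 3 Rfx2-/- libraries were below every one of them. The means of 12.3 ± 0.708 and 11.5 ± 3.22 CPM (SD, n = 5 and 4) gave a log2 fold change of -0.10 (SE 0.18, interval -0.50 to 0.29, edgeR adjusted p = 0.737), and without replicate 2 it was -0.32 (adjusted p = 0.112). Of the 50-base words in its exons, 3.66% also occur in exons of Cpsf7, the gene it overlaps on the opposite strand. By the counting rule given below, reads over exons of both genes were left out, unless strand was used to separate them.

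Of the 3 tectonics, Tctn2 alone passed at adjusted p 0.05. It encodes a membrane-bound tectonic and lies on the plus strand of chromosome 5 (124598749 to 124627738; 2733 bases of exon). Its level was 192, 174, 152, 169 and 187 CPM in wild type and 109, 63.8, 109 and 113 CPM in Rfx2-/- testes. The highest Rfx2-/- library was below the lowest wild type library, and replicate 2 was far below the other 3. The mean fell from 175 ± 15.8 (SD, n = 5) to 98.7 ± 23.3 CPM (SD, n = 4), which was 56.4% of wild type. The log2 fold change was -0.82 (SE 0.18, interval -1.21 to -0.44, edgeR adjusted p = 0.0102), so that Tctn2 passed at 0.05 but missed both limits of the call. Without replicate 2 the mean was 110 ± 1.95 CPM (SD, n = 3) and the change was -0.66 (adjusted p = 7.68e-04), smaller in size and under 2-fold.

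Tctn1, the first member of its family and a regulator of Hedgehog signalling, lies on the minus strand of chromosome 5 (122237848 to 122264460; 5717 bases of exon). Wild type libraries held 44.8, 40.4, 38.1, 40.4 and 40.4 CPM, and Rfx2-/- libraries held 61.3, 26.7, 49.5 and 55.5 CPM. Thus 3 Rfx2-/- libraries were above every wild type library and replicate 2 was below all of them. The means of 40.8 ± 2.42 and 48.2 ± 15.2 CPM (SD, n = 5 and 4) gave a log2 fold change of 0.24 (SE 0.20, interval -0.20 to 0.68, edgeR adjusted p = 0.454). Without replicate 2 the Rfx2-/- mean was 55.4 ± 5.89 CPM (SD, n = 3) and the change was 0.44 (adjusted p = 0.010), and with libraries weighted by limma voom it was 0.36 (adjusted p = 0.0485). Tctn1 also shared more sequence with other genes than any other member did. Of its 50-base words, 23.9% recur in other genes and 17.1% in Hvcn1, so the same counting rule bears most on Tctn1. Hvcn1 overlaps it on the opposite strand and had a log2 fold change of 0.42 (edgeR adjusted p = 0.14).

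Tctn3 lies on the minus strand of chromosome 19 (40596446 to 40612233; 3104 bases of exon) and encodes the remaining tectonic. Its level was 35.6, 37.9, 38.4, 37.8 and 42.4 CPM in wild type and 39.9, 32.2, 35.3 and 42.4 CPM in Rfx2-/- testes. The ranges lay almost on top of each other. With means of 38.4 ± 2.47 and 37.5 ± 4.55 CPM (SD, n = 5 and 4), the log2 fold change was -0.04 (SE 0.13, interval -0.31 to 0.24, edgeR adjusted p = 0.880). Entpd1, which starts 133 bases from Tctn3 on the opposite strand, had a log2 fold change of 0.09 (adjusted p = 0.78).

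To compare genes inside a library, Tctn2 and Tmem231 were set against other members as ratios of CPM per kb of exon. Tctn2 over Tctn1 was 8.34 to 9.68 in the wild type libraries and 3.72 to 5.00 in the Rfx2-/- libraries. Tctn2 over Tctn3 was 4.50 to 6.13 and 2.25 to 3.51. Both ratios of Tctn2 were therefore lower in every Rfx2-/- library, replicate 2 included, than in every wild type library. Tmem231 over Tctn3 was 1.01 to 1.19 in wild type and 0.428 to 0.575 in Rfx2-/- testes, and Tmem231 over the geometric mean of the other 9 members was 1.11 to 1.37 and 0.520 to 0.662. A ratio shows unequal change and not which of the genes moved.

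B9d1, B9d2 and Mks1 encode the B9 domain proteins, which bind one another, and none of the 3 passed. B9d1 lies on the plus strand of chromosome 11 (61505144 to 61512931; 847 bases of exon), with wild type levels of 76.9, 82.8, 74.3, 77.2 and 93.0 CPM and Rfx2-/- levels of 53.1, 101.7, 66.1 and 81.8 CPM. Replicate 2 was the highest library of either genotype, and the other 3 ranged from under to within the wild type levels. The means were 80.9 ± 7.48 and 75.7 ± 20.9 CPM (SD, n = 5 and 4), with a log2 fold change of -0.10 (SE 0.18, interval -0.49 to 0.30, edgeR adjusted p = 0.759). Its antisense neighbour B9d1os, which starts 85 bases away, was not analysed here.

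B9d2 lies on the plus strand of chromosome 7 (25680780 to 25686558; 1454 bases of exon). It was at 6.49, 4.02, 4.72, 6.48 and 6.39 CPM in wild type and at 4.11, 8.48, 5.17 and 4.90 CPM in Rfx2-/- testes. Apart from replicate 2, the Rfx2-/- libraries lay within the wild type range. The means of 5.62 ± 1.17 and 5.67 ± 1.93 CPM (SD, n = 5 and 4) gave a log2 fold change of 0.01 (SE 0.24, interval -0.52 to 0.53, edgeR adjusted p = 0.991).

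Mks1 lies on the plus strand of chromosome 11 (87853215 to 87863803; 2499 bases of exon). Its libraries held 24.2, 29.4, 30.1, 27.3 and 27.4 CPM in wild type and 29.4, 18.2, 27.6 and 25.6 CPM in Rfx2-/- testes. Here replicate 2 was the lowest library, and the other 3 were within the wild type range. The means were 27.7 ± 2.29 and 25.2 ± 4.90 CPM (SD, n = 5 and 4), with a log2 fold change of -0.13 (SE 0.16, interval -0.47 to 0.21, edgeR adjusted p = 0.603), and -0.01 (adjusted p = 0.981) without replicate 2.

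Cc2d2a encodes a protein of the cytoplasmic face with coiled-coil and C2 domains and lies on the plus strand of chromosome 5 (43662346 to 43740972; 5600 bases of exon). It was the weakest member, with 45 to 218 reads per library. Wild type libraries gave 3.44, 3.95, 5.18, 5.45 and 4.13 CPM, and Rfx2-/- libraries gave 7.23, 3.07, 4.90 and 3.20 CPM. The highest and the lowest of all 9 values were both from Rfx2-/- testes. The log2 fold change of 0.07 (SE 0.27, interval -0.51 to 0.66, edgeR adjusted p = 0.885) is the least precise of the 10.

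**Figure D2:**
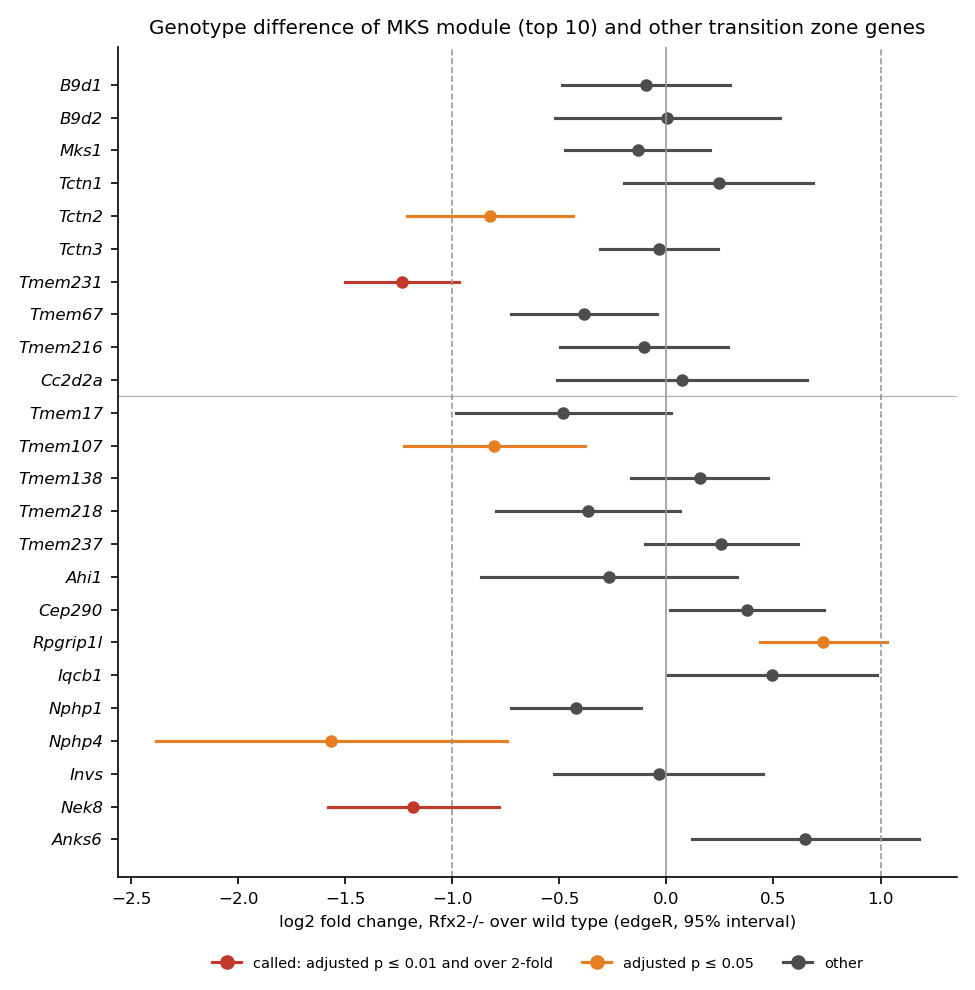
Log2 fold change, Rfx2-/- over wild type, with the 95% interval from edgeR (horizontal lines) for the 10 module genes above the divider and 14 other transition zone genes below it; dashed lines mark 2-fold in either direction. In the module, Tmem231 (red, called) and Tctn2 (orange, adjusted p at or under 0.05) lie to the left of 0 with their whole interval, as does Tmem67 (grey, adjusted p = 0.135), and 8 of the 10 intervals stay between the dashed lines.

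Among the 7 members with at least 11 X-box matches were both genes that fell, Tmem231 and Tctn2, and 5 genes whose interval stayed within 2-fold, Mks1, B9d1, B9d2, Tmem216 and Tctn1. Tctn3 and Cc2d2a, with 9 matches, also had intervals within 2-fold. The stretch of Tmem231 matched 11 letters, fewer than that of Mks1 with 12, whose level differed by -0.13 on the log2 scale. Thus the number of matching letters did not sort the members by their change.

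Per kb of exon, the members covered a wide span of levels in wild type testes. B9d1 was highest at 95.5 ± 8.84 CPM per kb (SD, n = 5), above 95.1% of genes tested, and Tctn2 was second at 63.9 ± 5.77. A middle group followed, with Tmem67 at 15.5 ± 1.97, Tmem231 at 13.6 ± 1.02, Tctn3 at 12.4 ± 0.795, Mks1 at 11.1 ± 0.917 and Tmem216 at 10.7 ± 0.613. The ranges of each pair of neighbours in this group overlapped, although Tmem231 was above Tctn3 and above Mks1 within each of the 5 libraries, and the range of Tmem67 lay above those of Mks1 and Tmem216. Tctn1 at 7.14 ± 0.423, B9d2 at 3.87 ± 0.804 and Cc2d2a at 0.791 ± 0.153, above 14% of genes, lay below them, each with a range apart from its neighbours. The exon length of Tctn1 may include sequence shared with Hvcn1, where reads were left out unless strand was used. Its level per kb may thus be too low. In Rfx2-/- testes Tmem231 was at 5.78 ± 0.254 CPM per kb (SD, n = 4), under the whole Rfx2-/- range of each of the other 4 genes of the middle group. B9d1 remained highest at 89.4 ± 24.7 and Tctn2 second at 36.1 ± 8.52.

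**Figure D3:**
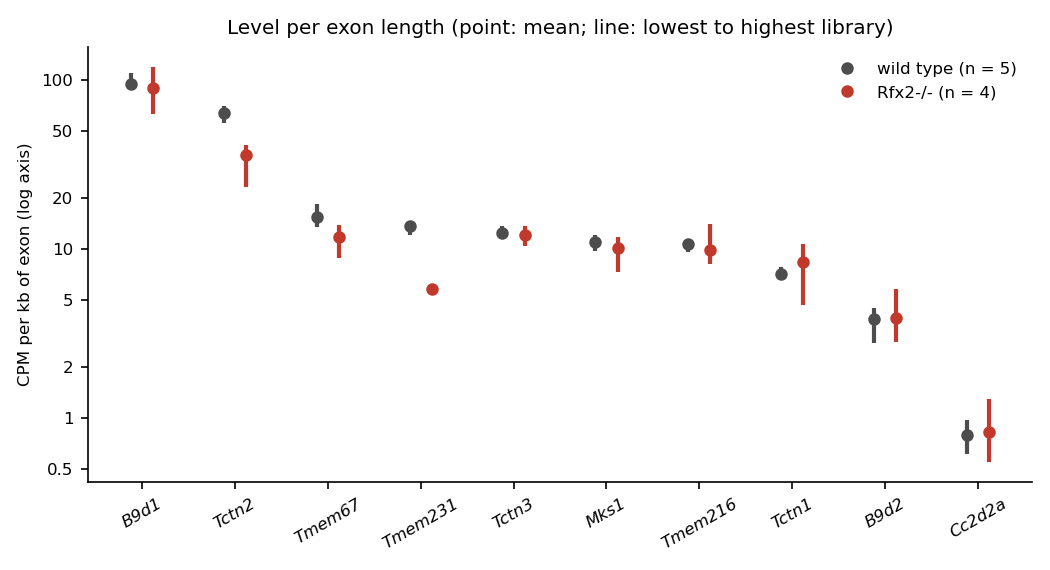
CPM per kb of exon (log axis) of the 10 module genes ordered by wild type level; points are means and lines run from the lowest to the highest library, grey for wild type (n = 5) and red for Rfx2-/- (n = 4). B9d1 and Tctn2 stand above the rest in both genotypes, and Tmem231 drops from 13.6 to 5.78, out of the middle group.

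Rfx2-/- replicate 2 was at one end of the Rfx2-/- group for 9 of the 10 members, and which end went with exon length. It was the highest of the 4 Rfx2-/- libraries for the 3 members with the least exon sequence, by 0.62 (B9d1), 0.72 (Tmem216) and 0.85 (B9d2) on the log2 scale above the mean of the others. It was the lowest for 6 of the 7 longer members, from -0.28 for Tctn3 to -1.05 for Tctn1, the longest. Tmem231, with 2984 bases, was the single member for which it fell between the others, at 0.06. The genotype differences of Tmem231 and Tctn2 were in the same direction without this library and when each library's trend with exon length was removed (-1.24 with adjusted p = 6.86e-06 and -0.84 with adjusted p = 0.00574).

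**Figure D4:**
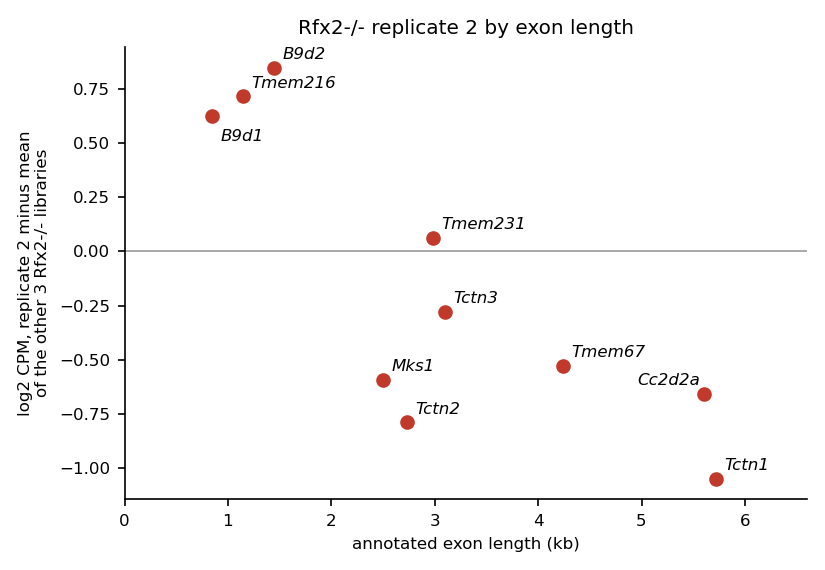
Log2 CPM of Rfx2-/- replicate 2 minus the mean log2 CPM of the other 3 Rfx2-/- libraries (vertical axis) against annotated exon length in kb (horizontal axis), 1 point per module gene. The 3 shortest genes are above 0 by 0.62 to 0.85, Tmem231 is at 0.06 and the other 6 are below 0.

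The other transition zone genes were taken as 3 lists: 6 further MKS-linked genes, 3 genes of the CEP290 and RPGRIP1L anchors that hold both modules to the microtubules, and 5 NPHP and inversin genes, whose products form the neighbouring module. Of these 14 genes, all tested, 1 was called lower and 0 higher, and at adjusted p 0.05 there were 3 lower and 1 higher, against the shares of all genes given above. Their median log2 fold change was -0.15. Among the MKS-linked genes, only Tmem107, encoding a membrane protein that recruits others to the transition zone, passed, from 32.4 ± 3.12 (SD, n = 5) to 18.6 ± 6.09 CPM (SD, n = 4; log2 fold change -0.80, SE 0.19, edgeR adjusted p = 0.0195). Its Rfx2-/- libraries held 14.5, 27.6, 16.1 and 16.0 CPM, replicate 2 being the high one. Without that library the change was -1.06 (adjusted p = 3.26e-05), whereas the adjusted p rose above 0.05, to between 0.0506 and 0.0768, without wild type replicate 1, 2 or 5 or Rfx2-/- replicate 3 or 4.

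Rpgrip1l, whose product anchors the MKS and NPHP modules, rose. Its level was 73.0, 79.3, 70.3, 87.7 and 91.6 CPM in wild type and 146, 115, 131 and 141 CPM in Rfx2-/- testes, so that every Rfx2-/- library was above every wild type library. The mean went from 80.4 ± 9.18 (SD, n = 5) to 134 ± 13.7 CPM (SD, n = 4; log2 fold change 0.73, SE 0.14, edgeR adjusted p = 0.00376), under 2-fold. Summed meiotic prophase markers were also higher, at 1667, 3059, 1534 and 1875 CPM in the Rfx2-/- libraries in order. Of these 8 markers, 1 was higher at an edgeR adjusted p of 0.05 and none was called. Rfx2-/- replicate 2 had the highest of these sums but the lowest Rpgrip1l level of its genotype. Round spermatid sums ran higher too, with ranges that overlapped between genotypes. Of those 8 markers, 2 were higher at an edgeR adjusted p of 0.05, none was called, and 3 were below 0 in log2 fold change. Late spermatocyte markers, with 4 of 8 below 0, summed to 5166 to 6695 CPM in wild type and 4992 to 8216 CPM in Rfx2-/- testes. The part of the cells of any of these sets in the Rpgrip1l difference was not tested.

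In the NPHP and inversin list, 2 of 5 genes were lower at adjusted p 0.05. The kinase gene Nek8 was called, from 27.3 ± 1.498 (SD, n = 5) to 11.98 ± 3.25 CPM (SD, n = 4; log2 fold change -1.18, SE 0.18, edgeR adjusted p = 0.00108). Nphp4, a scaffold of this module, went from 41.3 ± 4.26 to 13.9 ± 7.81 CPM (SD, n = 5 and 4; log2 fold change -1.56, SE 0.38, edgeR adjusted p = 0.0188). It exceeded 2-fold but missed an adjusted p of 0.01, and passed it without Rfx2-/- replicate 1 (0.00687) or replicate 2 (7.61e-05), the latter holding 3.27 CPM. Its adjusted p was above 0.05 without Rfx2-/- replicate 3 (0.0515) or 4 (0.0557). Whether these lists differ from the MKS module in their share of changed genes was not tested.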

How the data were processed

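RNA was sequenced as 50-nt single reads. Per the labels and the study's methods, the authors aligned them to GRCm38 (STAR 2.4, bases called with CASAVA 1.8.2), discarded reads with several alignments, and deposited raw read counts per Ensembl gene (featureCounts 1.4.6), leaving out reads over exons of several genes. Strand use is not given in the sources used here. No count was altered here.

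Genotypes were compared with edgeR 4.0.16 (R 4.3.3; filterByExpr, TMM, robust quasi-likelihood F test, all 9 libraries, genotype as the single factor), with Benjamini-Hochberg adjustment over 15613 genes. The standard error is the log2 fold change divided by the square root of F. Alternatives used limma 3.58.1 and DESeq2 1.42.0. The code was tested on simulated counts. Gene names, coordinates and exon lengths came from GENCODE M21 (GRCm38), which held 96.6% of identifiers; Tctn2, with no coding transcript there, was measured over its basic transcripts. Promoter windows came from RefSeq.

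Members and lists were chosen with earlier results of these data known. Named genes were all members, transition zone genes past adjusted p 0.05, Rfx2, genes overlapping or divergent within 1 kb, and the 5 profiles closest to a called member; 1 gene of the transition zone lists is not reported here. Replicates were numbered in accession order, 1 mouse each. Libraries of a genotype differed by at least 4.32 times sampling noise (chi-square per gene, 16 pairs), so none was a repeat deposit. Intervals and floors cover the spread between mice or counting error only.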

Additional observations from a re-analysis of the deposited data

Results flagged for a closer look

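In a comparison of the highest and lowest library with the rest of its group (Dixon's test, 15 genes, 30 groups), 3 libraries lay apart, where chance gives about 1 in 20, or 1.5. Tctn2 in Rfx2-/- replicate 2 was at 63.8 CPM against 109.1 to 112.5 CPM in the other Rfx2-/- libraries. Tmem107 in Rfx2-/- replicate 2 was at 27.6 CPM against 14.5 to 16.1 CPM. Tmem216 in wild type replicate 2 was at 11.1 CPM against 12.4 to 12.8 CPM in the other wild type libraries.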

How the results depend on the processing

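Tmem231 was called lower under every alternative but the test against a 2-fold difference, which called 0 members and left 0 lower at adjusted p 0.05 (adjusted p 0.297 for Tmem231, over all alternatives 1.87e-22 to 0.297). Tctn2 stayed lower, between -0.86 and -0.66, and its adjusted p crossed 0.01 with DESeq2 (1.28e-04), limma voom (2.93e-04), DESeq2 size factors (0.00922), the length trend removed and without Rfx2-/- replicate 2, though never over 2-fold. Members higher at adjusted p 0.05 were 1 with limma voom, Tctn1, and 0 to 1 when each replicate was left out, again Tctn1, without Rfx2-/- replicate 2. Over all genes, 272 were called lower and 29 higher in the test against 2-fold, 211 higher with DESeq2, and 447 to 632 lower and 92 to 175 higher with a replicate left out. Signs turned for members near 0. With scaling to total counts, which moved the median of all genes up by 0.13, B9d1 was 0.0431, Tmem216 0.0315 and Tctn3 0.10. Limma voom gave B9d2 -0.18 and Tctn3 0.0156, and the removed length trend gave B9d2 -0.16. With a replicate left out, the ranges were -0.27 to 0.0741 (B9d1), -0.26 to 0.17 (B9d2), -0.32 to 0.0142 (Tmem216), -0.0691 to 0.031 (Tctn3) and -0.22 to 0.24 (Cc2d2a). The cause was not tested. No paired analysis was made, because the labels give an animal number for each mouse but no litter. The study reports using littermates of the same age where it could, so mice of both genotypes may have shared litters. With 4 and 5 mice, changes of the weakest members, B9d2 and Cc2d2a, were limited to intervals wider than 1 log2 unit.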
